A study of Homo sapiens with 12 samples.

Results

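The kynurenine pathway genes measured here were the 8 genes IDO1, IDO2, TDO2, AFMID, KYNU, KMO, HAAO and QPRT, chosen by name from the 58735 genes of the deposited table. All 8 have a row in it, and 7 passed a filter on low counts, IDO2 being the exception. The RNA came from tumor-associated macrophages (TAMs) made from THP-1, a human monocytic leukaemia line, with the phorbol ester PMA. They shared medium, through a Transwell membrane, with AsPC-1, a human pancreatic cancer line. In control cocultures the cancer cells held an empty vector, and in OE-MMP28 cocultures they overexpressed MMP28, a secreted metalloproteinase. The other two groups were OE-MMP28 cocultures with a neutralizing antibody to IL-8 (anti-IL-8) or to VEGFA (anti-VEGFA), both secreted factors. Each of the 4 groups held 3 libraries. PMA and the cancer cells were thus shared by all groups, both antibody groups also carried the MMP28 overexpression, and no group is named for a control antibody. All TAMs come from 1 leukaemia line, and the labels do not say whether the 3 libraries of a group are separate cultures, so the p-values measure the spread between these libraries.

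Tryptophan that is not built into protein is mostly broken down through kynurenine. TDO2, IDO1 and IDO2 each catalyze the first, rate-limiting ring opening. TDO2 is best known from the liver, where it clears dietary tryptophan, and IDO1 is the interferon-inducible enzyme of myeloid cells, known for starving T cells of tryptophan. AFMID then releases kynurenine, which KMO hydroxylates and KYNU cleaves, HAAO opens the ring of the product, and QPRT turns the resulting quinolinate into a precursor of NAD. Kynurenine also binds the aryl hydrocarbon receptor.

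Library totals lay between 15852346 and 18701195 counts, and mitochondrial genes took 6.92% to 17.8% of them, the highest share in anti-VEGFA replicate 2. A count of 3, taken as the floor, corresponds to 0.160 to 0.189 CPM (counts scaled to equal library totals). The macrophage genes CD14 (11260 to 28850 counts), ITGAM, CSF1R, SPI1 and TYROBP were abundant in every library, whereas CD68 (0 to 5 counts) and MRC1 (0 to 4 counts) were near the floor. Between these lay FCGR1A (422 to 888 counts), LYZ (76 to 182) and CD163 (27 to 74), the study's marker of M2 TAMs. How reads that fall in overlapping genes were counted is not given in the sources used here, so the CD68 counts may not be its level. Of 10 epithelial markers, EPCAM and KRT17 had 0 counts in all 12 libraries. MMP28 also had 0 counts in all of them, so these TAM libraries hold no check of the overexpression in the cancer cells.

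TDO2 carried most of the pathway's RNA in these TAMs. On the deposited FPKM scale, which divides reads by gene length and depth, TDO2 was at 141 ± 16 (SD, n = 3) in control, 128 ± 17.5 in OE-MMP28, 96.7 ± 5.44 with anti-IL-8 and 89.5 ± 4.26 under anti-VEGFA. These levels were 81.4% to 89.2% of the summed FPKM of the 8 genes in each library, and the mean TDO2 FPKM ranked 294 among 19951 protein-coding genes. KYNU (7.73 to 11.7 FPKM) and QPRT (5.38 to 10.6) came next, and KYNU was above QPRT in each of the 12 libraries although their ranges overlap. AFMID (0.707 to 1.63) and KMO (0.265 to 0.932) followed, with overlapping ranges, and HAAO ranged from 0.106 to 0.383. IDO1 was above HAAO in the 3 control libraries and below it in the other 9. The 2 IDO genes were thus the lowest of the first-step enzymes, with IDO2 at 0 to 4 counts per library.

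The file's length for KYNU, 17600 bases, holds an annotated coding transcript of 15316 bases, whereas the median of its 7 coding transcripts is 802 bases. Per kilobase of the median coding transcript, TDO2 lay between 695 and 1306 CPM, KYNU between 164 and 264, and QPRT between 14.0 and 27.0. TDO2 was therefore first and KYNU second on both length scales, but the gap between TDO2 and KYNU depends on the length used. Where TDO2 had 7332 to 14501 counts, the hepatocyte genes ALB (9 to 38 counts), APOA1 (4 to 24) and HPD (6 to 17) were low but above the floor in every library, and TTR (0 to 4) and CYP3A4 (0 to 3) were at or near it. SERPINA1, which macrophages also make, was the abundant gene of that list at 1304 to 3167 counts.

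**Figure D1:**
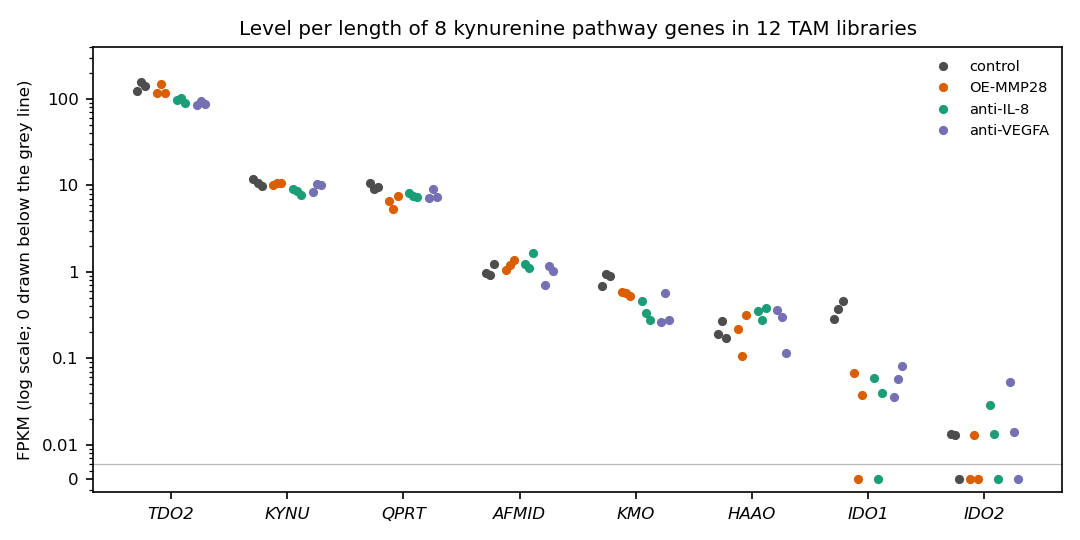
Deposited FPKM of the 8 kynurenine pathway genes on a log scale, 1 point per library, coloured by group, with values of 0 drawn below the grey line. TDO2 lies at 86.2 to 157 FPKM, KYNU and QPRT between 5.38 and 11.7, and IDO1 is above HAAO in control and below it in the other groups.

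Promoters are shown for TDO2, KYNU, KMO and QPRT, the genes outside the IDO locus that passed the test in a comparison below, because interferon genes moved in the same comparisons. RefSeq promoters (GRCh38.p14, 250 bases before to 50 after the start, plus strand for all 4) were found for 6 of the 8 genes. They were searched for the core letters bound by STAT dimers (GAS, TTCNNNGAA), by interferon regulatory factors (the ISRE core) and by AP-1 (TGANTCA) on both strands, and capitals mark the matches. The windows are chr4:155903446-155903745 for TDO2, chr2:142877414-142877713 for KYNU, chr1:241532128-241532427 for KMO and chr16:29678758-29679057 for QPRT, the one of its 2 RefSeq windows that starts at the file's gene start. The RefSeq starts of TDO2, KYNU and KMO differ from the file's gene starts. The TDO2 window lies well inside its gene, which begins at 155854738 in the file.
TDO2: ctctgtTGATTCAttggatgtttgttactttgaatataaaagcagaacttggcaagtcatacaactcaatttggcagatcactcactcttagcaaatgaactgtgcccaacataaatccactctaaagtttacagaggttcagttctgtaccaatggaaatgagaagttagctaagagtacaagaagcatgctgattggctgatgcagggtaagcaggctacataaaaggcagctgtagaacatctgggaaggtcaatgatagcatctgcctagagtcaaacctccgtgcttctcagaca
KYNU: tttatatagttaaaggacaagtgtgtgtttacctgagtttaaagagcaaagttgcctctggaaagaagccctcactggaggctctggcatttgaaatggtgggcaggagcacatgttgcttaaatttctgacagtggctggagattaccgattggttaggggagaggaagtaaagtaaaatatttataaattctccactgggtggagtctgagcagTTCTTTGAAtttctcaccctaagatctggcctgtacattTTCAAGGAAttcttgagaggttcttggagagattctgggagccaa
KMO: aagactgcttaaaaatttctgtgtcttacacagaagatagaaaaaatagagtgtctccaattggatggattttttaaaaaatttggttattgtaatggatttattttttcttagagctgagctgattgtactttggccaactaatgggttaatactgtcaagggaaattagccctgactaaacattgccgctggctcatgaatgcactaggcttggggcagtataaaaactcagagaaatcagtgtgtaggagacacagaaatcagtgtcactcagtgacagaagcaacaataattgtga
QPRT: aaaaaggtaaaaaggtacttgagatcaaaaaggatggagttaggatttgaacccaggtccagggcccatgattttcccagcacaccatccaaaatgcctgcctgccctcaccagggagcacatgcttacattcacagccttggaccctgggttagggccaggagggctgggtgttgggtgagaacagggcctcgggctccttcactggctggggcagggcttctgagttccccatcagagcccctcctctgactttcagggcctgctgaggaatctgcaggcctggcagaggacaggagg
KYNU held 2 GAS cores, whose first bases lie at -34 and 5 relative to the start, and 7.66% of the 35116 promoters in the table hold at least 1. TDO2 held 1 AP-1 core at -244, a match found in 7.71% of promoters. The ISRE core, found in 3.57% of promoters, was in none of the 4 windows, and KMO and both QPRT windows held no match. None of the matches overlap each other, and a match describes letters, not a bound site.

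The genes lie apart in the genome except for the IDO pair. In the file's annotation, which matches GENCODE 29 on GRCh38, TDO2 spans chr4:155854738-155920406, KYNU chr2:142877498-143055832, KMO chr1:241532134-241595642, QPRT chr16:29679008-29698699, AFMID chr17:78187317-78207701 and HAAO chr2:42767089-42792593. IDO1 (chr8:39902275-39928444) and IDO2 (chr8:39934614-40016391) are neighbours on the same strand. KMO shares 5541 bases with OPN3 on the opposite strand, where reads of both cannot be told apart without strand. OPN3 had 33 to 75 counts and passed the test in none of the 6 comparisons (adjusted p 0.32 to 0.91). TDO2 shares 11536 bases with ASIC5, which had 0 to 5 counts, and the genes that overlap the other members had at most 3. QPRT shares 16137 bases with the protein-coding AC009086.2 on the same strand, which had 0 counts. If reads in shared bases were dropped, the level of QPRT would be understated, and a count of 0 does not show otherwise.

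The first comparison asked what MMP28 overexpression in the cancer cells changed in the TAMs. IDO1 and QPRT, an interferon-inducible first-step enzyme and the enzyme that uses quinolinate, were lower in OE-MMP28 than in control. They were 2 of the 7 tested members called at an adjusted p under 0.05, where 3.16% of the 16046 tested genes were called, 2.64% lower and 0.523% higher. IDO1 passed the filter only through its control counts, and with at least 10 counts in every library, where it is untested, 1 member was called. As a description, the median log2 difference of the 7 members was -0.14, against 0.02 over all tested genes.

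IDO1 had 16, 21 and 26 counts in the control libraries and 4, 0 and 2 in OE-MMP28. All control libraries were above all OE-MMP28 libraries, and of the latter only replicate 1 exceeded the floor of 3 counts. The summed counts, 63 against 6, correspond to 10.5-fold lower CPM, with an exact 95% interval of 4.58 to 29.8 that covers counting error only. The fitted log2 difference was -3.32 ± 0.66 (SE, adjusted p = 0.0060), a value that depends on the prior count added to each library. IDO1 reached the filter's minimum of 10 counts in the control libraries alone, so it was tested because it is high in the group it is compared with. With no filter, which keeps it whatever its control counts, the log2 difference was -3.32 ± 0.70 (SE, adjusted p = 0.00026). That SE was larger than with the filter, so the smaller p is not added support. The adjusted p was at most 0.041 in the alternatives run in which the gene was tested, and with at least 10 counts in every library it was not tested. A lower count in bulk RNA cannot tell fewer IDO1-expressing cells from less IDO1 RNA per cell.

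QPRT had 38.8, 33.7 and 35.3 CPM in control and 24.1, 19.8 and 28.2 CPM in OE-MMP28. The groups did not overlap, and the fitted level was 33.1% lower (log2 -0.58 ± 0.15, adjusted p = 0.033). That call was close to its threshold. It was lost without any 1 control library, OE-MMP28 replicate 1 or 2, anti-IL-8 replicate 1 or 3, or anti-VEGFA replicate 3 (adjusted p 0.053 to 0.17), and in a fit of the 2 groups alone (0.064), while the log2 difference stayed between -0.70 and -0.46.

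KMO, which sends kynurenine toward quinolinate, had 70, 97 and 92 counts in control and 63, 59 and 51 in OE-MMP28. These libraries also did not overlap, but the log2 difference of -0.59 ± 0.27 did not pass (adjusted p = 0.33). IDO1, QPRT and KMO were the members with every OE-MMP28 library below every control library, as were 11.6% of all tested genes. The epithelial marker list moved in the same direction, from a summed 4.56 to 5.80 CPM in control to 2.64 to 3.50 CPM in OE-MMP28, with 6 and 4 of 10 markers over 3 counts, MUC1 being the most abundant and EPCAM and KRT17 at 0. Its part in these differences was not tested.

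The other four tested members overlapped between the groups and gave no call. TDO2 was at 666, 838 and 751 CPM in control and at 624, 792 and 635 CPM in OE-MMP28, so the groups overlapped and the log2 difference was -0.14, with -0.40 to 0.13 within 2 SE. KYNU, at 192 ± 15.7 CPM in control and 188 ± 6.65 CPM in OE-MMP28 (SD, n = 3), differed by -0.03, with -0.27 to 0.22 within 2 SE. AFMID had 66 to 85 counts in control and 77 to 91 in OE-MMP28 (log2 0.20 ± 0.22, adjusted p = 0.74). HAAO had 30 summed counts in each group, which leaves the log2 difference anywhere from -1.01 to 1.01 within 2 SE. IDO2, with 2 summed counts in control and 1 in OE-MMP28, was at or under the floor in both groups.

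**Figure D2:**
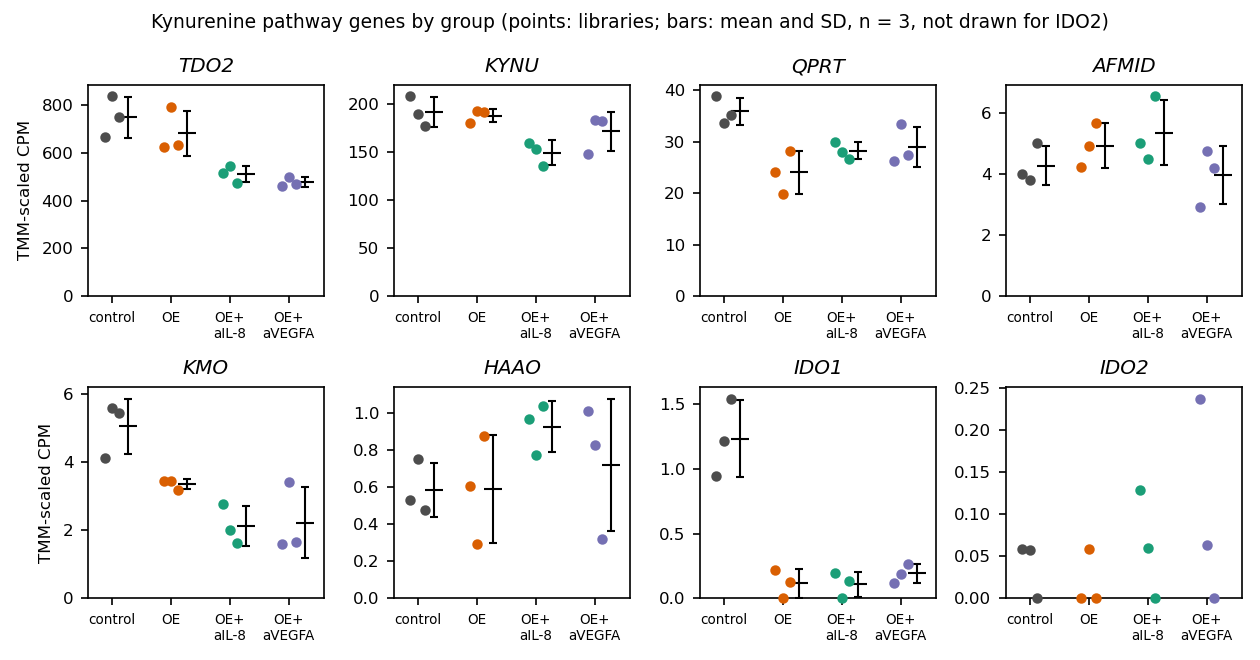
CPM scaled by TMM for each gene, 1 panel per gene with its own axis from 0, points for libraries and bars for the mean and SD of 3 libraries (not drawn for IDO2). OE-MMP28 is written OE and the antibodies aIL-8 and aVEGFA; IDO1 drops from 0.944 to 1.54 CPM in control to at most 0.267 CPM in the other groups, while TDO2 is lower in both antibody groups.

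The antibody comparisons asked what neutralizing IL-8 or VEGFA changed under MMP28 overexpression. Against OE-MMP28, TDO2 was lower with either antibody in every library, but no member passed the adjusted threshold in edgeR's test. With anti-IL-8, TDO2 was at 516, 544 and 476 CPM, below all 3 OE-MMP28 libraries (log2 -0.42 ± 0.13, adjusted p = 0.071). With anti-VEGFA it was at 462, 500 and 470 CPM, also below all 3 (log2 -0.52 ± 0.13, adjusted p = 0.087).

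For anti-IL-8 against OE-MMP28, edgeR called 0 of 7 members and 0.0% of tested genes, and 3 members had an unadjusted p under 0.05, as did 29.3% of genes. DESeq2 called 2 members, TDO2 (adjusted p = 0.021) and KYNU (0.049), and 2259 genes in all, and limma's voom called 0 of either. KYNU, at 160, 154 and 135 CPM, and KMO, at 43, 34 and 25 counts, lay below all OE-MMP28 libraries, as TDO2 did, where 15.3% of genes were lower without overlap. Their log2 differences were -0.33 ± 0.12 for KYNU (adjusted p = 0.096) and -0.66 ± 0.29 for KMO (adjusted p = 0.15). Without OE-MMP28 replicate 3, edgeR called TDO2 (adjusted p = 0.026) and 4125 genes in all.

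For anti-VEGFA against OE-MMP28, edgeR called 0 of 7 members and 0.343% of tested genes. At an unadjusted p under 0.05 it was 1 member, TDO2, and 18.8% of genes. TDO2 was also the only member below OE-MMP28 without overlap, where 8.97% of genes were. DESeq2 called TDO2 (adjusted p = 0.011) among 429 genes, as did edgeR with no filter on low counts (0.032, among 400 genes) and without OE-MMP28 replicate 3 (0.027, among 1402 genes), and voom called 0 members. KMO had 27, 54 and 31 counts, so that replicate 2, the library with the highest mitochondrial share, overlapped with OE-MMP28 (log2 -0.61 ± 0.29, adjusted p = 0.27). QPRT was not called with either antibody, at log2 0.23 ± 0.15 with anti-IL-8 (adjusted p = 0.29) and 0.27 ± 0.15 under anti-VEGFA (adjusted p = 0.32).

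IDO1 stayed near the floor with both antibodies, at 3, 0 and 2 counts with anti-IL-8 and 2, 3 and 5 under anti-VEGFA. Against OE-MMP28 the log2 difference was -0.14 ± 0.96 with anti-IL-8 and 0.70 ± 0.85 under anti-VEGFA, intervals too wide at this depth to show or exclude a severalfold change. The summed IDO1 counts were 11.8-fold (4.79 to 37.5) below control with anti-IL-8 and 6.32-fold (3.22 to 13.8) below control with anti-VEGFA, as exact intervals of counting error. The fitted log2 differences from control were -3.46 ± 0.68 (adjusted p = 0.0030) and -2.62 ± 0.61 (adjusted p = 0.011), and the latter call was lost without control replicate 3 (0.053). Here too IDO1 was tested only through its control counts, and with no filter the adjusted p was 8.4e-05 and 0.0021. These smaller p-values are not added support either. DESeq2 gave IDO1 no adjusted p for anti-IL-8 against control, where it called 3 members and edgeR called 4. Under the filter of at least 10 counts in every library, IDO1 was untested in both comparisons.

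Set against the control cocultures, TDO2, KMO and IDO1 were lower in both antibody groups. Each of these differences combines MMP28 overexpression with an antibody, and the 3 comparisons share the same control libraries, so their values are given side by side. With anti-IL-8, TDO2, KYNU, KMO and IDO1 were called, 4 of 7 members, all lower, where 20.7% of tested genes were called and 10.9% were called lower. With anti-VEGFA, TDO2, KMO and IDO1 were called, 3 of 7, all lower, where 11.0% were called and 5.37% called lower. Both counts include IDO1, which passed the filter only through control. As a description, the median log2 differences of the 7 members were -0.36 and -0.31, against -0.02 and 0.0014 over all genes.

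TDO2 was 1.47-fold lower than control with anti-IL-8 (log2 -0.55 ± 0.13, adjusted p = 0.0094) and 1.57-fold lower with anti-VEGFA (log2 -0.65 ± 0.13, adjusted p = 0.0048). The anti-VEGFA call held in every alternative run (adjusted p at most 0.043), whereas the anti-IL-8 call was lost without control replicate 2 or without replicate 1 or 3 of anti-IL-8 (adjusted p 0.054 to 0.062).

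KMO was 2.37-fold lower with anti-IL-8 (log2 -1.24 ± 0.29, adjusted p = 0.0075) and 2.29-fold lower with anti-VEGFA (log2 -1.19 ± 0.28, adjusted p = 0.013). Control had 70 to 97 counts, above all 6 antibody libraries, which had 25 to 54. The calls were lost, narrowly, without anti-IL-8 replicate 3 in the former (0.0501), and without control replicate 2 (0.064) or anti-VEGFA replicate 3 (0.066) in the latter. Without anti-VEGFA replicate 2 the log2 difference was -1.62 (adjusted p = 0.00097).

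KYNU passed the threshold against control only with anti-IL-8 and only just (log2 -0.36 ± 0.12, adjusted p = 0.048), and with anti-VEGFA it was at -0.16 ± 0.12 (adjusted p = 0.43). The direct comparison of the antibodies gave 0.20 ± 0.12 for KYNU (adjusted p = 0.46), so a difference between them was not shown. The anti-IL-8 call was lost with no filter on low counts (0.10) and without any of 9 single libraries (0.057 to 0.22), including all 3 control and all 3 anti-IL-8 libraries.

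QPRT lay below all control libraries with both antibodies, at 467, 473 and 412 counts with anti-IL-8 and 441, 526 and 514 under anti-VEGFA, but was not called (adjusted p = 0.096 and 0.18). With anti-IL-8, 5 members had no overlap below control, where 24.4% of genes did, and HAAO was above control without overlap, where 23.4% did. With anti-VEGFA it was 4 members and 17.4% of genes. HAAO reached 44 summed counts with anti-IL-8 against 30 in control (log2 0.65 ± 0.47, adjusted p = 0.34), and IDO2 had 3 summed counts with anti-IL-8 and 5 under anti-VEGFA, too few for a fold.

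Between the 2 antibody groups no member was called by edgeR, DESeq2 or voom, and none had an unadjusted p under 0.05, where 0.199% of genes were called and 15.0% had such a p. TDO2 differed by -0.10 ± 0.13, with -0.37 to 0.17 within 2 SE.

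**Figure D3:**
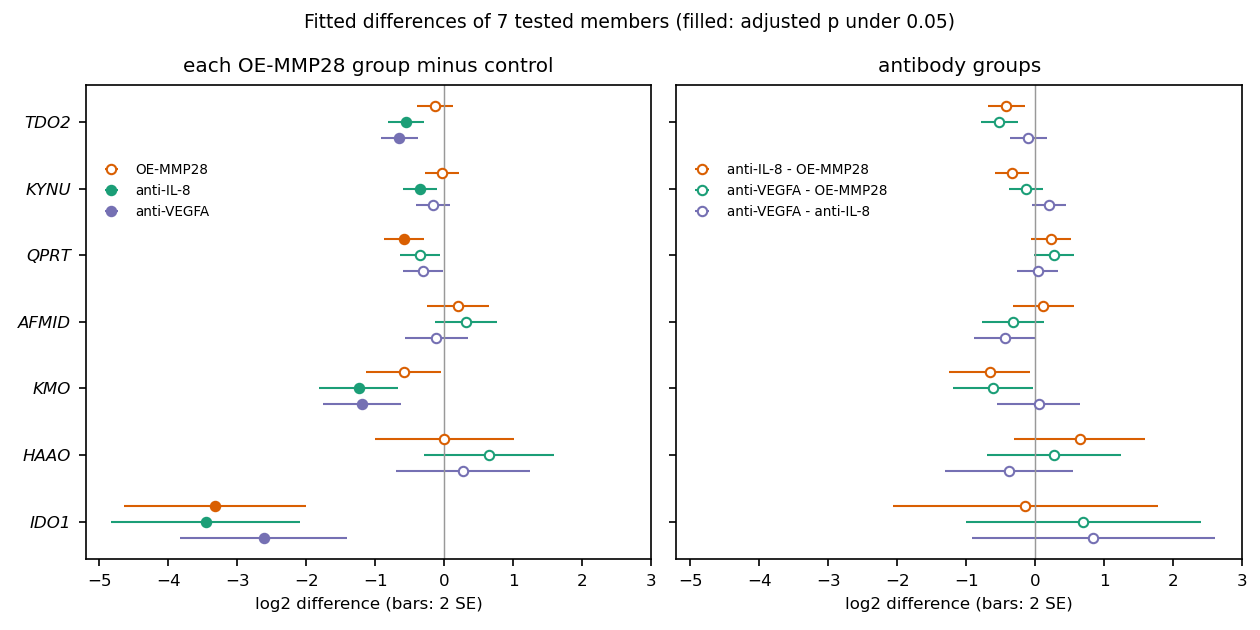
Fitted log2 differences of the 7 tested genes with bars of 2 SE, filled where the adjusted p is under 0.05, for the 3 groups minus control (left) and the comparisons among the OE-MMP28 groups (right). IDO1 is at -3.32, -3.46 and -2.62 against control, TDO2 and KMO are filled for both antibody groups, and no point on the right is filled.

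The interferon side of the first step was read from 16 genes of interferon receptors, JAK-STAT signalling and IRF factors, all tested. In OE-MMP28, 5 of the 16 fell and none rose. Among them STAT2, a transcription factor that interferon activates, fell by 1.41 on the log2 scale (SE 0.14, adjusted p = 3.6e-06), from 281, 322 and 276 CPM in control to 129, 101 and 101 CPM, without overlap. IRF9, its partner, fell by 0.90 (adjusted p = 0.018), IRF1 by 0.80 (0.0045) and the kinase JAK2 by 0.60 (0.048).

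The receptor genes IFNGR1 (log2 0.34, adjusted p = 0.17), IFNGR2 (0.28, 0.32), IFNAR1 (0.04, 0.93) and IFNAR2 (0.01, 0.99) gave no call in that comparison. With anti-IL-8, 6 of the 16 were lower than control, IFNAR1 among them (log2 -0.45, adjusted p = 0.023), and with anti-VEGFA it was 6 as well, IRF2 among them (-0.43, 0.022).

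The interferon-stimulated genes MX1, IFIT1, ISG15, RSAD2, CXCL10 and GBP1, taken as a comparison for IDO1, were all lower than control in all 3 groups, and earlier results of these data already showed interferon genes to be low. Their median log2 difference was -4.21 in OE-MMP28, -4.62 with anti-IL-8 and -3.67 under anti-VEGFA, against IDO1's -3.32, -3.46 and -2.62. CXCL10, a chemokine, went from 818, 1104 and 734 counts in control to 25, 4 and 6 in OE-MMP28. Against OE-MMP28, edgeR called 0 of the 6 with either antibody, with 3 and 2 at an unadjusted p under 0.05.

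Tryptophan supply and charging genes moved in both directions. SLC7A5, which with SLC3A2 forms the LAT1 carrier of tryptophan, rose in OE-MMP28 (log2 0.59 ± 0.15, adjusted p = 0.033), with anti-IL-8 (1.05 ± 0.15, 0.00014) and under anti-VEGFA (0.67 ± 0.15, 0.0074) relative to control. Its CPM went from 207 to 227 in control to 270 to 364 in OE-MMP28, 374 to 486 with anti-IL-8 and 308 to 399 under anti-VEGFA. With anti-IL-8, 4 of the 7 tested genes of this list were called, SLC7A5 and SLC3A2 (0.66, 0.018) higher and the carriers SLC36A4 (-0.67, 0.0038) and SLC16A10 (-0.72, 0.036) lower. WARS, the cytosolic tryptophanyl-tRNA synthetase and itself interferon-inducible, was at 659 ± 73.2 CPM in control and 591 ± 16.4 CPM in OE-MMP28 (adjusted p = 0.63).

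Among 8 tested genes of the side branches of the pathway, 3 were called with anti-IL-8 and 2 under anti-VEGFA relative to control. KYAT3, which turns kynurenine into kynurenic acid, was lower with both (log2 -0.60, adjusted p = 0.018, and -0.74, 0.0081). ALDH8A1, whose enzyme acts on an intermediate beside quinolinate, was higher with anti-VEGFA (0.96, 0.0070), from 43 to 48 counts in control to 79 to 94. ECHS1, a mitochondrial enzyme of fatty acid oxidation (0.53, 0.015), and GOT2, the mitochondrial aspartate aminotransferase (0.45, 0.019), were higher with anti-IL-8. IL4I1, a secreted oxidase that breaks down tryptophan by another route, had 2525 to 5612 counts per library and was not called in any comparison (adjusted p 0.063 to 0.60).

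Downstream of QPRT, 8 of 10 genes of NAD synthesis were tested. NADK, the NAD kinase, was the one called in OE-MMP28 (log2 -0.59, adjusted p = 0.015). NAMPT, the rate-limiting enzyme of NAD salvage, was lower than control with anti-IL-8 (-1.07, 0.00018) and anti-VEGFA (-0.50, 0.045). NADSYN1, the synthetase that completes the route from quinolinate, was higher with both (0.50, 0.023, and 0.61, 0.012), and NAPRT, which uses nicotinic acid, was higher with anti-IL-8 (0.85, 0.010).

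The aryl hydrocarbon receptor AHR itself was not called in any comparison (650 to 749 counts in control, 459 to 752 in the other groups). Of the 7 tested genes of its list, TIPARP, an AHR target, was lower than control with anti-IL-8 (-0.69, 0.0017) and anti-VEGFA (-0.45, 0.028), and CYP1B1, another target, was lower with anti-IL-8 (-0.47, 0.038). CYP1A1 had 1 to 5 counts per library. None of the 7 was called in OE-MMP28 against control by edgeR, with 1 at an unadjusted p under 0.05, as had 14.5% of all tested genes. Shares of all genes called are those given above for each comparison.

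Over the 12 libraries, the pathway members did not share a single pattern. On log2 CPM, TDO2 went with KMO (Pearson r = 0.86) and less with KYNU (0.64), IDO1 went with QPRT (0.77), and TDO2 and QPRT were nearly unrelated (0.096). These values describe 12 libraries that share 4 group means. IDO1 was near the floor outside control, so its r values, here and below, mostly restate control against the other groups. Among 12683 protein-coding genes with a mean of at least 10 counts, the pattern most like that of TDO2 was STX12 (r = 0.96), followed by MRPS35, RCHY1, AK3 and COQ2. For KMO it was AKAP7 (0.96), then EXOSC9, BRD7, ABHD10 and NMI, and for KYNU it was NUCB2 (0.94), then UBE2K, ANXA1, ACTR6 and VRK1. For IDO1 it was APOBEC3F (0.93), then BATF2, LY6E, CXCL10 and HESX1, and for QPRT it was TRIM54 (0.95), then CRABP2, C19orf66, IRF7 and ETV4.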

How the data were processed

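RNA of 12 TAM libraries was sequenced. Which group a library belongs to was taken from the labels, and what each group received from the study's own description. The deposited counts are reads per gene made by the authors, with HISAT2 2.0.5 and featureCounts 1.5.0-p3 named in the submitters' processing notes, and whether strand was used is not given in the sources used here. The deposited FPKM values divide these counts by the file's gene length and by 1 constant per library and were used only for levels between genes. The authors' own comparisons, with log2 fold changes and p-values, were not used.

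The counts were fitted with edgeR 4.0.16 (R 4.3.3). The filter was filterByExpr (minimum count 10), libraries were scaled by TMM, and 4 groups were fitted together with the quasi-likelihood test. P-values were adjusted by Benjamini-Hochberg over all 16046 genes within each of the 6 comparisons, and fitted log2 differences use a prior count of 0.125. The common dispersion was 0.0231. Intervals for ratios of summed counts are exact at 95%. The study's methods name limma, which was run as an alternative (limma 3.58.1, voom), as were DESeq2 1.42.0, library totals, other filters, only the 2 groups compared, a block for the replicate number, and leaving out each library. The script was tested on simulated counts.

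The members and lists were chosen with earlier results of these data known. Named are all members, at most 6 called genes per list with the largest changes, and for each called member the 5 genes most like it by Pearson's r. IRF2 was named after its values were seen. Coordinates are those of the file, whose 58735 gene IDs, starts and ends all match GENCODE 29, and motif searches used RefSeq promoters. Figures were drawn in Python 3.11.15 with matplotlib 3.10.9.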

Additional observations from a re-analysis of the deposited data

How the results depend on the processing

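No member called against control changed direction in any alternative run. The depth limits IDO2 and HAAO, whose counts allow no useful comparison, and the fitted size of IDO1's change.

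Genes called for anti-IL-8 against OE-MMP28 went from 0 to 2259 with DESeq2, 1438 with no filter and 795 with the replicate block, and to between 0 and 4125 with 1 library left out (4125 without OE-MMP28 replicate 3, 1166 without anti-VEGFA replicate 2). For anti-VEGFA against OE-MMP28 they went from 55 to 429 with DESeq2, 400 with no filter, 1 with the 2 groups alone and 8 to 1402 with 1 library left out, highest without OE-MMP28 replicate 3 and lowest without OE-MMP28 replicate 2. Between the antibodies they went from 32 to 252 with DESeq2, 277 with no filter, 57 with at least 10 counts in every library, 17 with the 2 groups alone and 3 to 112 with 1 library left out. For anti-IL-8 against control they went from 3317 to 6039 with the 2 groups alone. The cause of these shifts was not tested.

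Members called were 1 in place of 2 in OE-MMP28 against control with at least 10 counts in every library, which leaves IDO1 untested, and with the 2 groups alone. They were 2 with DESeq2 in place of 0 for anti-IL-8 against OE-MMP28, and 1 with DESeq2 and 1 with no filter for anti-VEGFA against OE-MMP28. With 1 library left out, genes called ranged from 295 to 641, 1312 to 4309 and 662 to 2582 for OE-MMP28, anti-IL-8 and anti-VEGFA against control, and members called from 1 to 2, 1 to 4 and 2 to 3, with 0 to 1 for each antibody against OE-MMP28.

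QPRT for anti-IL-8 against control became called with library totals (adjusted p = 0.040) and with the 2 groups alone (0.012). Among uncalled values that changed sign, HAAO in OE-MMP28 against control went to log2 -0.096 with voom, -0.050 with library totals and -0.0055 with the replicate block, and KMO between the antibodies to -0.021 with voom. With 1 library left out, values that changed sign ranged from -0.083 to 0.038 for KYNU and -0.36 to 0.32 for HAAO in OE-MMP28 against control, -0.80 to 0.73 for IDO1 and -0.046 to 0.24 for AFMID in anti-IL-8 against OE-MMP28, -0.067 to 0.65 for HAAO in anti-VEGFA against OE-MMP28, -0.25 to 0.065 for AFMID and -0.064 to 0.65 for HAAO in anti-VEGFA against control, and -0.41 to 0.26 for KMO and -0.099 to 0.10 for QPRT between the antibodies.

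No pairing by replicate number was seen, although 3 libraries a group cannot exclude one and the labels do not describe any. Deviations of same-numbered libraries correlated at -0.16 to 0.24, over 0.1 in 4 of 18 pairs, against 10 of 36 pairs with different numbers. The replicate block changed no call of a member, and every other library scaling moved the median of all genes by less than 0.1.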
